A study of Mus musculus with 12 samples.

Results

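The Nat8 family of the mouse is a group of 8 related genes, Nat8 and Nat8f1 to Nat8f7, which encode small acetyltransferases held in the membrane of the endoplasmic reticulum. The genes were selected on their expression differences between groups of these livers, then taken by name and mapped to their Ensembl identifiers, and all 8 were found among the 24187 genes of the count table. All 8 passed the filter on low counts that left 22581 genes for testing. The contrast that led to its choice is not recorded, and 4 of the 8 members were called higher in hAAM-treated than in vehicle-treated mice by a single test, DESeq2 on 10 livers, where 0.294% of all genes were, while edgeR and DESeq2 over 12 livers called none. For this reason differences between groups in a member are given as a description and without their p-values, with standard errors for the main fit and for some of the other settings. Counts of members past a threshold stand beside the share of all genes, rest on values that may have chosen the family, and are not evidence for it.

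Bulk RNA sequencing was run on the livers of 12 mice, of which 3 were untreated controls, 5 received APAP and PBS vehicle, and 4 received APAP and hAAMs. The series describes the mice as C57BL/6J, while the study's methods also give C57BL6/JOlaHsd for APAP-injected mice, and the substrain could not be settled. APAP is acetaminophen (paracetamol), labelled here as 350 mg/kg. Another source gives a higher dose for the severe form of the model, and which applies to these livers could not be settled. hAAMs are human alternatively activated macrophages, grown from blood monocytes with CSF-1 and then exposed to IL-4 and IL-13. By the study's methods the mice were 10 to 12 weeks old and were fasted for 12 h before APAP. hAAMs or vehicle were injected 16 h after APAP, and livers were collected 32 h (figure legend) or 36 h (methods) after APAP. The methods also mention fasted mice given saline in place of APAP, and whether the control mice, labelled as without injury or treatment, were among them or were fasted is not stated. Their hour of collection is not given either, and the labels give no sex. Reads were aligned to the mouse genome alone, so transcripts of the injected human cells were not measured as such.

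NAT8, for which the family is named, acts at the end of the mercapturate pathway, and whether each mouse member does so was not tested here. A reactive compound is first joined to glutathione, gamma-glutamyl transferases and dipeptidases then trim the conjugate to a cysteine conjugate, and NAT8 adds an acetyl group from acetyl-CoA, which gives a mercapturic acid that is excreted in urine. The reactive metabolite of APAP leaves the body by this route, as cysteine and mercapturate conjugates. Relatives of NAT8 have also been described as lysine acetyltransferases of the endoplasmic reticulum, which act on proteins passing through it and draw on acetyl-CoA imported by the transporter SLC33A1. The proximal tubule of the kidney is the best known site of NAT8, and several members are made in mouse liver.

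The 8 genes lie side by side on the minus strand of chromosome 6, within 209.0 kb (GRCm38, chr6:85706727-85915687). In order of position they are Nat8f7, Nat8f3, Nat8f6, Nat8f5, Nat8, Nat8f2, Nat8f4 and Nat8f1. Their coding sequences have 678 to 714 bases. The start of each coding sequence is shown because it makes visible how the family divides. The lines below give 60 coding bases of each member from the GENCODE transcripts, read from the start codon, except for Nat8f1, whose annotated coding sequence begins 30 bases earlier and is shown from its base 31. Capitals mark a base that differs from the most common base of that position among the 8 genes, and the 2 positions at which a pair of bases is equally common have none.
Nat8f3: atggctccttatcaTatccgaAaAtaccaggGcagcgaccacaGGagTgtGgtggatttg
Nat8f7: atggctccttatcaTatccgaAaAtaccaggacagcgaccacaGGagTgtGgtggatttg
Nat8f6: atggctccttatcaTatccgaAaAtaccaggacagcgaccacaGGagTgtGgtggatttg
Nat8f1: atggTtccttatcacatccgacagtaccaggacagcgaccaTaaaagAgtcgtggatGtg
Nat8f2: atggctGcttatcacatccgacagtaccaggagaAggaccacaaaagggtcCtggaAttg
Nat8f4: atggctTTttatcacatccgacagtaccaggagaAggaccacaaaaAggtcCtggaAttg
Nat8: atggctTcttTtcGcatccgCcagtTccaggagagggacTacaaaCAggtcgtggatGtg
Nat8f5: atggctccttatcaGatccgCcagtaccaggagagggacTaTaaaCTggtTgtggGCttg
Nat8f7 and Nat8f6 are identical over this stretch, Nat8f3 differs from them at a single base, and Nat8f2 and Nat8f4 share several of their capitals.

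Over the whole coding sequence, Nat8f3, Nat8f6 and Nat8f7 were near-identical copies, with 99.1% to 99.6% identical bases in each pair. Nat8f2 and Nat8f4 shared 84.7%, and every other pair shared 64.7% to 79.4%. The map of identities places these groups beside each other. A read from a near-identical copy can be assigned to the wrong gene or dropped, so the share of each gene's transcript sequence that recurs elsewhere was measured. Of all 100-base stretches in its transcripts, 68.3% recurred in another gene for Nat8f7, 50.1% for Nat8f6 and 44.7% for Nat8f3. The share was 6.8% for Nat8f2, 6.7% for Nat8f4, 4.2% for Nat8f5 and 1.1% for Nat8. Nat8f1 had 31.8%, of which 25% lay on the opposite strand of Tprkb, a neighbouring gene whose exons overlap those of Nat8f1 by 478 bases, and 6.8% in the pseudogene Nat8b-ps. Nat8f5 and Nat8f6 have 135 bases of exon in common. Nat8f3, Nat8f6 and Nat8f7 are therefore also given as a sum, and their single values are uncertain.

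**Figure D1:**
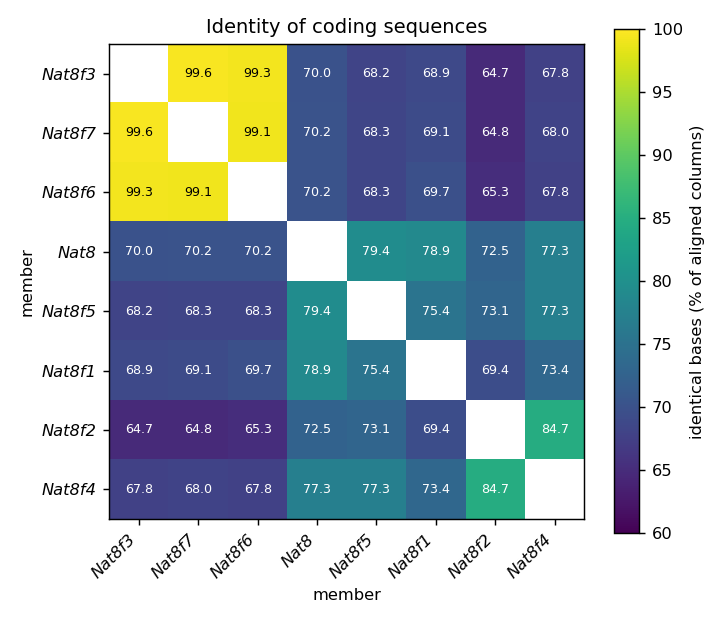
Identity of the coding sequences of the 8 Nat8 family members, as the percentage of aligned columns with the same base, in a grid of member by member with the value printed in each cell. Nat8f3, Nat8f7 and Nat8f6 form a block of 99.1% to 99.6%, Nat8f2 and Nat8f4 share 84.7%, and the other cells lie between 64.7% and 79.4%.

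The region before the start of each gene was compared because some members differed between groups together and others did not. RefSeq (GRCm38.p6) held 10 promoter windows for the 8 members, and the 250 bases before each start were searched on both strands. A block of 14 letters, GGTTTATNATTNNC, was found in 4 of the 10 windows and in 0.0274% of 32851 promoters, which is 9 promoters in all, and each of the 4 windows also holds CCAAT downstream of the block. This block was noticed in the sequences themselves and was not one of the motifs chosen for the search. Its letters were set from these 4 windows, which therefore match by construction, so the 2 shares are no test. It is given in capitals with 8 bases on either side, on the minus strand of GRCm38.
Nat8f7, chr6:85708638-85708667: gactctgtGGTTTATAATTATCaaacatcc
Nat8f6, chr6:85809946-85809975: ggctctgtGGTTTATAATTATCaaacatcc
Nat8f5, chr6:85821027-85821056: tgacctttGGTTTATGATTACCcaggagcc
Nat8f2, chr6:85869150-85869179: tgacccttGGTTTATGATTGTCcaggagtc
The block starts 98 bases before the RefSeq start of Nat8f7, 90 before that of Nat8f6, 76 before that of Nat8f5 and 34 before that of Nat8f2. The CCAAT letters follow it after 17 bases in Nat8f7 and Nat8f6 and after 10 bases in Nat8f5 and Nat8f2. In GENCODE the stretches of Nat8f7 and Nat8f6 lie inside an exon of a longer transcript, that of Nat8f5 lies before the gene, and that of Nat8f2 overlaps its first exon by 9 bases. The windows of Nat8f7 and Nat8f6 were 97.5% identical over 242 aligned bases. The window of Nat8f3 matched neither of them beyond a few bases, and was 98.7% identical over 156 bases to the more distant of the 2 windows of Nat8. The 4 genes with the block include Nat8f2, which differs from the other 3 in its values in these livers.

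Of the motifs chosen for the search, GTTAAT, part of the site of HNF1, was found before Nat8f5 and at the nearer window of Nat8, and in 6.43% of all promoters. TGACNNNGC, the core letters bound by NRF2, was found before Nat8f4 and in 10.2% of all promoters. None of the 10 windows held CAAAGTCCA (HNF4A, 0.384% of all promoters), the PPAR direct repeat (0.0335%), TTATGNAA (the D-box of the clock output factors, 3.07%) or TTGCNNAA (C/EBP, 9.56%). CCAAT, searched for after it had been noticed beside the block, was found in 6 of the 10 windows and in 33.8% of all promoters, and nothing is read from these shares. No 2 of these matches overlapped in a family window.

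Total counts ranged from 47391650 to 74056505 per liver. Counts were scaled with TMM factors and are given as CPM, counts scaled to a fixed library size. Scaling by library size alone moves the middle of all genes against control by 0.36 (log2) with vehicle and 0.32 with hAAMs, so all changes below are relative to the middle of all genes. The labels say of the replicates only that they are separate samples, so p-values measure the spread between these samples, which may in part be technical. Of all pairs of livers, hAAM replicate 4 and vehicle replicate 3 were the most alike. Their counts differed by 1.19 times the spread that counting alone gives, against 2.41 to 6.95 times for the other 65 pairs, although they carry labels of different treatments. Whether they come from the same sample, or whether a label is wrong, was not tested. Either would change the group sizes of 5 and 4 and every difference between the treatments. Fold changes between the treatments are therefore given with and without both. Hepatocyte transcripts were abundant in every liver, with Alb between 35702 and 70201 CPM. Of 7 genes that mark the kidney tubule, the 2 found in the table, Lrp2 and Slc5a2, had at most 4.13 and 0.540 CPM. For sex, 2 genes were read after seeing the data. Ddx3y, on the Y chromosome, had 54.4 to 75.1 CPM over all livers and Xist at most 2.59 CPM, as in male mice. Markers of pericentral hepatocytes, the cells around the central vein that APAP damages, had a summed level over 5 genes of 3684 to 5677 CPM in control livers. The range was 318 to 1380 CPM after vehicle, and 405 to 2713 CPM after hAAMs. Most of this sum was Cyp2e1, with 239 to 1300 CPM after vehicle and 322 to 2464 CPM after hAAMs. Glul, another of the 5, had 636 to 1168 CPM in control livers, 40.8 to 63.9 CPM after vehicle and 39.9 to 75.4 CPM after hAAMs. The summed level of 6 macrophage markers was 224 to 279 CPM in control livers, 275 to 452 CPM with vehicle and 275 to 468 CPM with hAAMs. Of the 6, Cd68 rose by 2.21 with vehicle and 2.09 with hAAMs on the log2 scale (edgeR FDR 4.44e-05 and 0.000127) and Lyz2 by 1.15 and 1.53 (edgeR FDR 0.0197 and 0.0101), and Adgre1, Clec4f, Cd163 and Csf1r did not pass the threshold. The part of either cell type in the members' values was not tested. In bulk tissue, fewer cells of a kind and less RNA per cell cannot be told apart.

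Nat8f2 was by far the most abundant member in every liver. Per kilobase of exon, which allows levels of different genes to be compared, its mean level in control mice was 391 ± 74 CPM per kb (SD, n = 3) and it made up 79.5% of the family. Nat8f1 came next with 62.8 ± 16.8 CPM per kb (SD, n = 3), and both held their place in all 12 livers. Nat8f4 had 13.8 ± 3.58 and Nat8 11.4 ± 3.24 CPM per kb (SD, n = 3 each), and these 2 changed places between livers of the control and the vehicle group. Nat8f5, at 7.55 ± 0.524 CPM per kb (SD, n = 3), came next in all 12 livers. Nat8f7 had 1.25 ± 0.449, Nat8f6 1.11 ± 0.0586 and Nat8f3 0.627 ± 0.140 CPM per kb (SD, n = 3 each), and Nat8f7 and Nat8f6 changed places between control livers. The family sum therefore mostly follows Nat8f2. Its share of the sum per kilobase averaged 81.1% with vehicle and 76.7% with hAAMs.

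**Figure D2:**
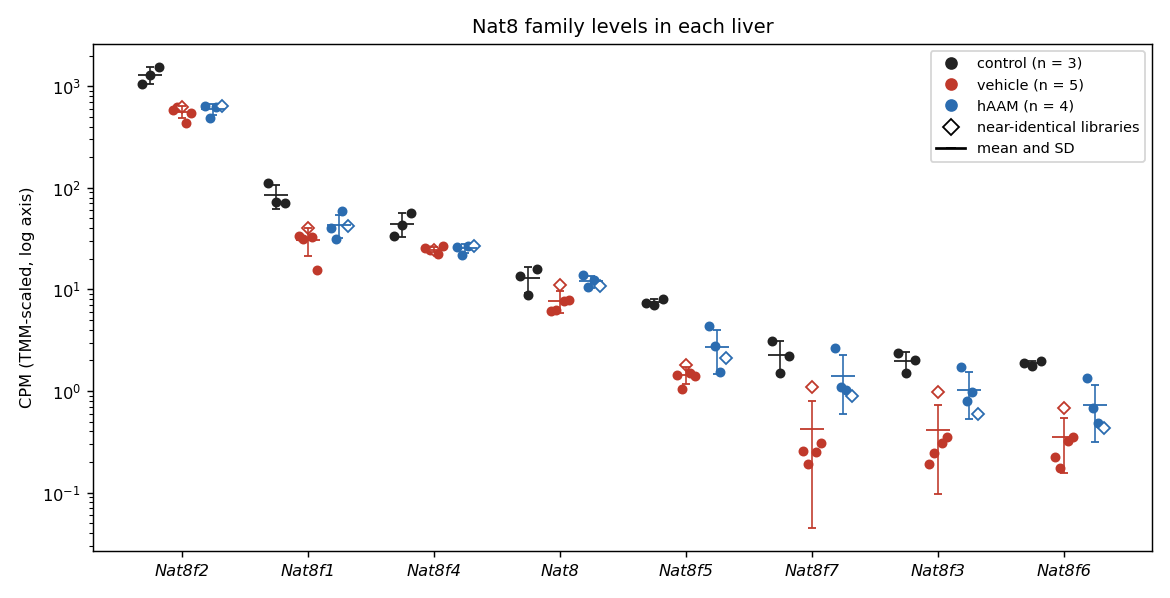
CPM of each Nat8 family member in each of the 12 livers, on a log axis, with points for single livers, a bar for the mean and whiskers for the SD of each group (control n = 3, vehicle n = 5, hAAM n = 4). Open diamonds mark the 2 near-identical libraries. Points of vehicle-treated mice lie below all points of control mice for every member except Nat8, and the means lie furthest below control for Nat8f7, Nat8f6, Nat8f5 and Nat8f3 (18.5% to 21% of control).

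Against untreated liver, every member was lower after APAP and vehicle. Mean levels were 18.5% of control for Nat8f7, 18.7% for Nat8f6, 19.3% for Nat8f5 and 21% for Nat8f3. They were 36.3% for Nat8f1, 43.5% for Nat8f2, 55.5% for Nat8f4 and 60.5% for Nat8. All 8 members had an edgeR FDR under 0.05 and a lower level, where 14.8% of all genes did, and 7 of the 8, all but Nat8, did not overlap with control mice, where 17.3% of all genes lay entirely below. With library sizes alone 7 members were called lower, where 4.92% of all genes were, and 7 without control replicate 1 (10.5% of all genes) or without control replicate 3 (10.4%), Nat8 being the exception each time. These counts use values that may have chosen the family. The direction was the same under all 22 settings of the analysis for every member.

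Nat8f2 had 1052, 1278 and 1541 CPM in the 3 control livers, 582, 620, 623, 435 and 547 CPM with vehicle, and 635, 486, 629 and 632 CPM with hAAMs. All 9 livers after APAP lay below the lowest control liver, and the 2 treatments overlapped. The log2 fold change against control was −1.20 (SE 0.154) with vehicle and −1.12 (SE 0.164) with hAAMs, or 2.30-fold and 2.17-fold lower. Between the treatments it was 0.09 (SE 0.144), and 0.09 (SE 0.174) without the near-identical libraries.

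Nat8f4, the closest relative of Nat8f2, had a like pattern at a lower level. It had 33.4, 43.2 and 56.4 CPM in control livers, 25.3, 24.4, 24.5, 22.3 and 26.5 CPM with vehicle and 26.1, 21.6, 26.5 and 26.9 CPM with hAAMs. All 9 livers after APAP lay below the control livers, within a narrow range of 21.6 to 26.9 CPM, while the control livers themselves spread further. The log2 fold changes against control were −0.85 (SE 0.135) with vehicle and −0.81 (SE 0.143) with hAAMs, and the difference between treatments was 0.04 (SE 0.127), or 0.00 (SE 0.155) without the near-identical libraries. Without control replicate 3, the highest, the values against control were −0.64 and −0.60, and they were −0.50 and −0.51 when counts were scaled by library size alone.

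Nat8f1, for which acetylation of proteins in the endoplasmic reticulum has been described, had 111, 71.7 and 71.1 CPM in control livers. It had 33.7, 31.4, 40.2, 32.6 and 15.4 CPM with vehicle and 40.0, 31.6, 58.8 and 42.1 CPM with hAAMs. Every liver after APAP lay below the control livers, and 2 of the 4 hAAM livers lay above all vehicle livers. The log2 fold changes against control were −1.46 (SE 0.268) with vehicle and −0.97 (SE 0.285) with hAAMs, and the difference between treatments was 0.49 (SE 0.252), or 0.62 (SE 0.293) without the near-identical libraries. It was 0.31 (SE 0.256) without hAAM replicate 3 and 0.32 (SE 0.193) without vehicle replicate 5, the lowest. The highest Nat8f1 level after APAP was in hAAM replicate 3, the liver with the highest summed level of pericentral markers after APAP, 2713 CPM. The summed level of 5 markers of periportal hepatocytes, those near the portal vein, was also highest there, at 9923 CPM. In vehicle replicate 5 the 2 sums were 1006 CPM (pericentral) and 3220 CPM (periportal). The part of these cells in the Nat8f1 level was not tested. Tprkb, the neighbour that overlaps Nat8f1, was likewise highest after APAP in hAAM replicate 3, at 57.7 CPM. How many reads of either gene belong to the other cannot be told apart without the strand setting.

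Nat8, the gene the family is named for, differed least from control. Its levels were 13.6, 8.87 and 16 CPM in control livers, 6.07, 6.30, 11.0, 7.61 and 7.85 CPM with vehicle and 13.9, 10.5, 12.5 and 10.9 CPM with hAAMs. With vehicle 4 of 5 livers lay below the lowest control liver, the exception being replicate 3 of the near-identical pair. All 4 hAAM livers lay within the control range. The log2 fold change against control was −0.73 (SE 0.209) with vehicle and −0.10 (SE 0.221) with hAAMs, or −0.38 and 0.20 when counts were scaled by library size alone. The value with hAAMs also changed sign, to 0.09, without control replicate 3, and was −0.31 without control replicate 2. hAAM-treated mice lay 0.62 (SE 0.195) above vehicle-treated mice on the log2 scale, or 1.54-fold, and 0.82 (SE 0.190) without the near-identical libraries, where all 3 hAAM livers exceeded all 4 vehicle livers.

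Nat8f5 had 7.34, 6.98 and 8.0 CPM in control livers. It had 1.43, 1.04, 1.82, 1.51 and 1.39 CPM with vehicle and 4.39, 2.80, 1.55 and 2.11 CPM with hAAMs. All livers after APAP lay below control, and hAAM replicates 1, 2 and 4 lay above every vehicle liver. The log2 fold changes were −2.37 (SE 0.267) with vehicle and −1.46 (SE 0.280) with hAAMs against control, and 0.92 (SE 0.255) between the treatments. Without the near-identical libraries the last was 1.11 (SE 0.284), and without hAAM replicate 1, the highest after APAP, it was 0.58 (SE 0.202).

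The 3 near-identical members had few reads, between 95 and 164 per control liver and between 10 and 140 after APAP. Nat8f7 had 3.13, 1.49 and 2.19 CPM in control livers, 0.258, 0.192, 1.08, 0.251 and 0.311 CPM with vehicle, and 2.65, 1.09, 1.03 and 0.896 CPM with hAAMs. In the vehicle group 4 livers were close together and replicate 3 stood above them, while hAAM replicate 1 lay within the control range. The log2 fold changes against control were −2.46 (SE 0.529) with vehicle and −0.68 (SE 0.531) with hAAMs. The value with hAAMs was −1.17 (SE 0.522) without hAAM replicate 1, and −0.37 (SE 0.600) without control replicate 1. The difference between the treatments, 1.78 (SE 0.508) on the log2 scale or 3.43-fold, was the largest of the 8 members over 12 livers, and was 2.63 (SE 0.397) without the near-identical libraries and 1.29 (SE 0.491) without hAAM replicate 1.

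Nat8f3 had 2.36, 1.49 and 2.04 CPM in control livers, 0.189, 0.244, 0.968, 0.310 and 0.355 CPM with vehicle, and 1.74, 0.796, 0.968 and 0.597 CPM with hAAMs. Vehicle replicate 3 again stood above the other vehicle livers. Its log2 fold changes were −2.26 (SE 0.458) with vehicle and −0.93 (SE 0.466) with hAAMs against control, and 1.33 (SE 0.443) between the treatments, or 2.06 (SE 0.324) without the near-identical libraries and 0.95 (SE 0.445) without hAAM replicate 1. Nat8f6 had 1.89, 1.78 and 1.98 CPM in control livers, 0.224, 0.174, 0.678, 0.325 and 0.355 CPM with vehicle, and 1.3, 0.685, 0.484 and 0.429 CPM with hAAMs. Every liver after APAP lay below the control livers, and the highest vehicle liver was again replicate 3. The log2 fold changes of Nat8f6 were −2.43 (SE 0.405) with vehicle and −1.35 (SE 0.414) with hAAMs against control, and 1.07 (SE 0.399) between the treatments, or 1.61 (SE 0.354) without the near-identical libraries and 0.61 (SE 0.363) without hAAM replicate 1.

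Since reads of these 3 genes can be exchanged, their sum is the safer measure. It was 387, 303 and 314 reads in control livers, 39, 35, 141, 60 and 69 reads with vehicle, and 303, 139, 128 and 103 reads with hAAMs. Fitted as 1 gene, the sum had log2 fold changes of −2.38 (SE 0.463) with vehicle and −0.94 (SE 0.478) with hAAMs against control, and of 1.43 (SE 0.440) between the treatments. Without the near-identical libraries these were −2.92 (SE 0.322), −0.76 (SE 0.326) and 2.16 (SE 0.321). Without hAAM replicate 1 they were −2.38 (SE 0.408), −1.39 (SE 0.465) and 0.99 (SE 0.419). A sum of genes with a like pattern must have that pattern, so the sum is no further support. Reads dropped because they match several copies are not regained in it. The sum of all 8 members, fitted as 1 gene, had −1.21 (SE 0.147), −1.08 (SE 0.156) and 0.12 (SE 0.138) in the same order, close to Nat8f2, which supplies most of its reads, and 0.14 (SE 0.165) between the treatments without the near-identical libraries. Per kilobase of exon, the log2 ratios of the mean summed levels were −1.22, −1.06 and 0.17.

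**Figure D3:**
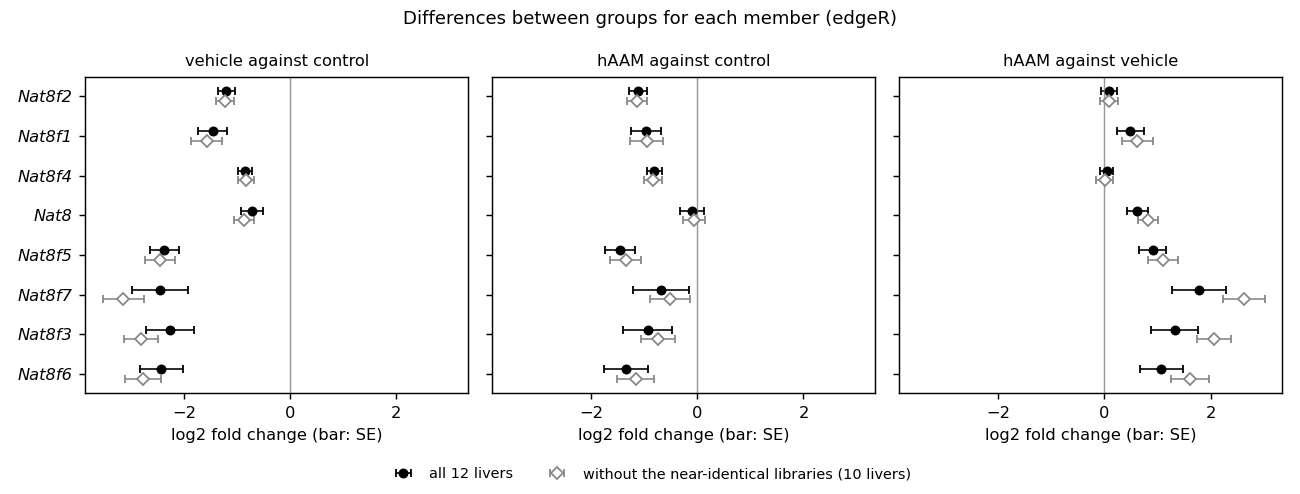
Log2 fold change of each Nat8 family member in 3 comparisons, from edgeR, with bars for the standard error. Filled circles use all 12 livers and open diamonds leave out the 2 near-identical libraries. Against control all vehicle values lie between −0.73 and −2.46 over 12 livers, and between the treatments Nat8f2 and Nat8f4 lie near 0 while Nat8f3, Nat8f6 and Nat8f7 lie above 1.

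After APAP and hAAMs, the members also lay below control. Mean levels were 36.4% of control for Nat8f5, 39.1% for Nat8f6, 46.1% for Nat8f2, 51.0% for Nat8f1, 52.2% for Nat8f3, 57.1% for Nat8f4, 62.3% for Nat8f7 and 93.1% for Nat8. Nat8f1, Nat8f2, Nat8f4, Nat8f5 and Nat8f6 had an edgeR FDR under 0.05 and a lower level, where 9.96% of all genes did, and the same 5 lay entirely below control, where 14.2% of all genes did. Leaving out control replicate 1, control replicate 3, hAAM replicate 2 or hAAM replicate 4, in turn, left 3 of the 8 past this threshold, where 6.54%, 5.66%, 6.44% and 8.75% of all genes were lower. With library sizes alone 3 of the 8 passed, where 3.46% of all genes were lower. The 3 were Nat8f2, Nat8f4 and Nat8f5 in each of these fits. Leaving out control replicate 2, hAAM replicate 1 or hAAM replicate 3 left 4 of the 8, where 7.72%, 6.21% and 11.3% of all genes were lower. Nat8 overlapped with control in all 4 livers, and Nat8f3 and Nat8f7 in hAAM replicate 1.

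The comparison of hAAM-treated with vehicle-treated mice asks whether the cells moved the injured liver, and over all 12 livers edgeR called 0 of 22581 genes (0%), none of the family included. Of all genes 1133 had an unadjusted p under 0.05, and DESeq2 called 1 gene, which is no member. All 8 members had a fold change above 0. No member had hAAM livers entirely above vehicle livers, where 0.709% of all genes did.

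Without hAAM replicate 4 and vehicle replicate 3, the treatments did not overlap for Nat8, Nat8f3, Nat8f5, Nat8f6 and Nat8f7, where 4.32% of all genes had hAAM livers entirely above. edgeR again called no gene, with 1530 genes at an unadjusted p under 0.05. DESeq2 on the same 10 livers called 88 genes, of which 66 were higher, or 0.294% of all genes tested, and these included Nat8, Nat8f3, Nat8f6 and Nat8f7. This combination of test and livers was chosen after seeing the data, and it is among the contrasts that may have led to the choice of the family. Vehicle replicate 3 was the highest vehicle liver for Nat8, Nat8f1, Nat8f2, Nat8f3, Nat8f5, Nat8f6 and Nat8f7. hAAM replicate 4 was the lowest hAAM liver for Nat8f3, Nat8f6 and Nat8f7. With each other, the 2 libraries had 567 and 584 reads of Nat8, 50 and 32 of Nat8f3, 94 and 113 of Nat8f5 and 56 and 48 of Nat8f7, vehicle replicate 3 first.

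How alike the members ran across livers is described here by Pearson's r of log2 CPM. Over the 9 livers after APAP, which share tissue state, depth and the near-identical pair, r was 0.97 for Nat8f3 with Nat8f7, 0.94 for Nat8f3 with Nat8f6 and 0.95 for Nat8f6 with Nat8f7. These values include shared reads, and were 0.98, 0.94 and 0.96 over the 7 livers left without the pair. Nat8, which has few shared stretches, had r of 0.97 with Nat8f3, 0.96 with Nat8f7, 0.90 with Nat8f6 and 0.76 with Nat8f5 over the same 9 livers. Nat8f2 had 0.78 with Nat8f4, and from 0.08 with Nat8f5 to 0.40 with Nat8f1 among the other 6 members. Over all 12 livers, which include the difference from control, Nat8f2 was less apart from them, with 0.96 for Nat8f4, 0.82 for Nat8f5, 0.76 for Nat8f6, 0.75 for Nat8f1, 0.69 for Nat8f3, 0.62 for Nat8f7 and 0.49 for Nat8. Nat8f1 had 0.98 with the pseudogene Nat8b-ps over the 9 livers and 0.99 over all 12, and 0.53 with Nat8 over the 9.

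For each member except Nat8f6, whose mean was under 1 CPM, the genes outside the family that ran closest were taken by rank of Pearson's r. Genes whose mean log2 CPM was under 2 were left out. Nat8b-ps, at 1.78, lies under this level, and its r with Nat8f1 is above that of the first-ranked gene over all 12 livers. Over the 9 livers after APAP, Ephx1, which encodes microsomal epoxide hydrolase, a detoxifying enzyme of the endoplasmic reticulum, came first for Nat8 (r = 0.986), for Nat8f3 (0.957) and for Nat8f7 (0.954). Tbck was among the nearest 5 of the same 3 genes (r = 0.945, 0.940 and 0.923). Nat8f1 ran closest to Aldh1b1, a mitochondrial aldehyde dehydrogenase (0.986), Nat8f2 to Abhd16a (0.947), Nat8f4 to Otulin (0.925) and Nat8f5 to Vti1b (0.937). Over all 12 livers, where the drop after APAP weighs most, the first above this level were Dennd2d for Nat8 (0.935), B2m for Nat8f1 (0.976), Mb21d2 for Nat8f2 (0.980) and Tmem254a for Nat8f4 (0.969). For Nat8f3 it was Wipf2 (0.934), for Nat8f5 Mapk1ip1l (0.958) and for Nat8f7 BC004004 (0.925). With this many genes and this few livers, high values of r occur for many genes.

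A list of 13 genes of the circadian clock was added after seeing the data, so its counts are a description. With vehicle 11 of the 13 passed an edgeR FDR of 0.05 (7 higher and 4 lower), where 29.8% of all genes did. With hAAMs 5 of the 13 passed an edgeR FDR of 0.05 (4 higher and 1 lower), where 20.7% of all genes did. Between the treatments edgeR and DESeq2 called none of the 13 over 12 livers. Of the 13, 9 had an unadjusted edgeR p under 0.05, where 1133 of all 22581 genes did. Dbp, an output factor of the clock, had 0.438, 1.24 and 2.13 CPM in control livers, 11.8, 5.48, 7.65, 11.1 and 9.59 CPM with vehicle, and 1.29, 2.54, 2.69 and 8.36 CPM with hAAMs. Arntl, a core activator whose phase is opposite to that of Dbp, had 46.5, 40.7 and 36.4 CPM in control livers, 14.2, 19.5, 22.9, 12.4 and 9.88 CPM with vehicle, and 27.5, 21.1, 34.6 and 21.8 CPM with hAAMs. hAAM replicates 1 to 3 were nearer to control than any vehicle liver for Dbp, and hAAM replicate 4 lay among the vehicle livers, next to its near-identical partner. In edgeR, Dbp rose with vehicle by 2.85 ± 0.620 on the log2 scale (SE, FDR 0.00567). Arntl fell to −1.39 ± 0.242 (SE, FDR 0.00188). With hAAMs Dbp was at 1.55 ± 0.612 (SE, edgeR FDR 0.0919) and Arntl at −0.65 ± 0.256 (SE, edgeR FDR 0.0910), neither past the threshold. Cry1, a repressor of the clock, fell with vehicle to −1.07 ± 0.235 (SE, edgeR FDR 0.00595) and had −0.45 ± 0.249 (SE, edgeR FDR 0.219) with hAAMs. Npas2, which can take the place of Clock as partner of Arntl, fell to −2.17 ± 0.485 (SE, edgeR FDR 0.00650) and had −0.99 ± 0.508 (SE, edgeR FDR 0.186). Nr1d2 rose with vehicle by 0.69 ± 0.207 (SE, edgeR FDR 0.0250) and Per2 by 0.80 ± 0.254 (SE, edgeR FDR 0.0336), under 19 and 16 of 22 settings, and neither passed with hAAMs (0.28 and 0.62). Tef, Per1, Per3, Ciart and Clock passed the threshold with both treatments, Clock with hAAMs under 15 of 22 settings and at −0.05 when counts were scaled by library size alone. Per1 was no nearer to control with hAAMs (1.28 ± 0.172) than with vehicle (1.14 ± 0.166). Without the near-identical libraries, edgeR gave Dbp 2.91 with vehicle and 0.78 with hAAMs against control, and Arntl −1.55 and −0.57, and DESeq2 called both between the treatments.

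Over the 9 livers after APAP, r with Dbp was −0.78 for Nat8f3, −0.76 for Nat8f7, −0.72 for Nat8f6, −0.71 for Nat8f5 and Nat8, −0.40 for Nat8f1, −0.27 for Nat8f2 and −0.02 for Nat8f4. With Arntl it was 0.74 for Nat8, Nat8f3 and Nat8f7, 0.53 for Nat8f6, 0.44 for Nat8f5, 0.86 for Nat8f1, 0.59 for Nat8f2 and 0.20 for Nat8f4. Over the 7 livers without the pair, r with Dbp ran from −0.93 for Nat8f3 to −0.11 for Nat8f4. Both clock genes were picked for their difference between the groups, which these values of r also contain. The part of the hour of collection or of food intake in these values was not tested, and neither is given per mouse.

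**Figure D4:**
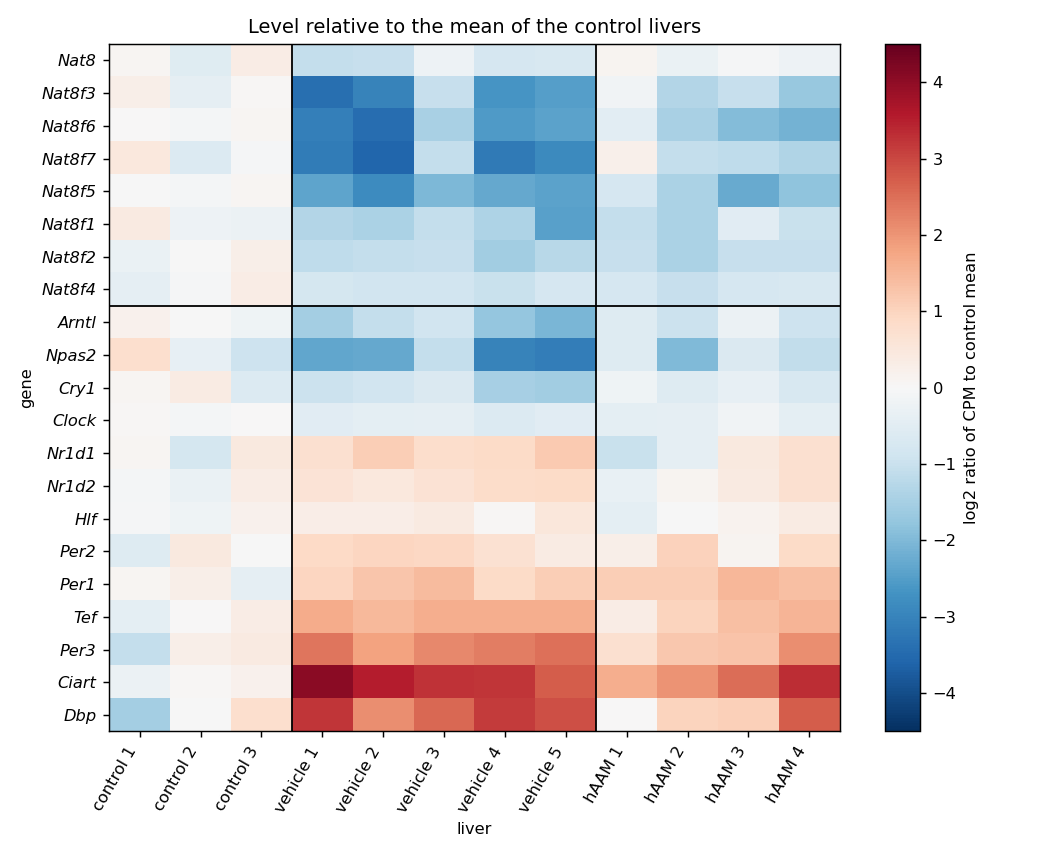
Log2 ratio of CPM to the mean of the 3 control livers, for the 8 Nat8 family members (above the line) and 13 clock genes (below the line), in columns of single livers. Blue is lower and red is higher than control. Nat8f3, Nat8f6 and Nat8f7 are darkest blue in vehicle replicates 1, 2, 4 and 5 and paler in vehicle replicate 3 and in the hAAM livers, while Dbp is darker red in all vehicle livers and in hAAM replicate 4 (5.48 to 11.8 CPM) than in hAAM replicates 1 to 3 (1.29 to 2.69 CPM).

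Other enzymes of the mercapturate pathway were read from a list of 22 genes, of which 20 passed the filter. With vehicle 8 of the 20 passed an edgeR FDR of 0.05 (2 higher and 6 lower), where 29.8% of all genes did. The median log2 fold change of the list was −0.21 and that of all genes 0.01. With hAAMs 4 passed (1 higher and 3 lower), where 20.7% of all genes did, and the median was −0.11. Between the treatments edgeR and DESeq2 called none, and 1 of the 20 had an unadjusted p under 0.05, where 1133 of all 22581 genes did. DESeq2 called 7 of the 20 with hAAMs, a count that cannot be set against the edgeR share of all genes. When counts were scaled by library size alone, 9 passed with vehicle (6 higher and 3 lower) and 6 with hAAMs (4 higher and 2 lower). In that fit 8637 of all 22581 genes were higher and 1110 lower with vehicle, and 6559 and 781 with hAAMs.

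Upstream of NAT8, the gamma-glutamyl transferase Ggt6 fell from 34.9 ± 4.61 CPM (SD, n = 3) to 18.1 ± 3.71 CPM with vehicle (SD, n = 5) and 16.8 ± 3.17 CPM with hAAMs (SD, n = 4). Its edgeR FDRs were 0.00240 and 0.00342. Cndp2, a dipeptidase that cleaves cysteinylglycine, rose from 31.9 ± 2.57 CPM (SD, n = 3) to 63.8 ± 7.47 (SD, n = 5) with vehicle and 54.4 ± 13 (SD, n = 4) with hAAMs, at edgeR FDRs of 0.00149 and 0.0101. The aminopeptidase Lap3 fell, on the log2 scale, to −0.60 ± 0.118 (SE, edgeR FDR 0.00343) with vehicle and −0.38 ± 0.125 (SE, edgeR FDR 0.0485) with hAAMs. Scaled by library size alone it was at −0.26 and −0.09, and with hAAMs it was called under 6 of 22 settings. Anpep, aminopeptidase N, fell to −0.34 ± 0.113 (SE, edgeR FDR 0.0378) with vehicle, a difference that vanished when counts were scaled by library size alone (0.00) and was called under 13 of 22 settings. With hAAMs it had −0.34 ± 0.118 (SE, edgeR FDR 0.0607). Ggt1, the main gamma-glutamyl transferase of the kidney tubule, and the dipeptidase Dpep3 were under the filter.

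Acy1 and Acy3, which remove the acetyl group from mercapturates and so act against NAT8, are named for that role after their values were seen. They did not pass the threshold, with Acy1 at a log2 difference of 0.21 ± 0.156 (SE, edgeR FDR 0.344) and Acy3 at −0.13 ± 0.130 (SE, edgeR FDR 0.462) with vehicle. Kyat3, a cysteine conjugate beta-lyase that competes with NAT8 for its substrate, fell to −1.11 ± 0.296 (SE, edgeR FDR 0.0152) with vehicle. It had −0.86 ± 0.314 (SE, edgeR FDR 0.0723) with hAAMs. Of the thiol methyltransferases, Mettl7b fell to −0.94 ± 0.152 (SE, edgeR FDR 0.00132) and −0.90 ± 0.161 (SE, edgeR FDR 0.00393), and Mettl7a1 fell to −0.61 ± 0.211 (SE, edgeR FDR 0.0468) with vehicle and had −0.14 ± 0.223 (SE, edgeR FDR 0.690) with hAAMs. The call of Mettl7a1 with vehicle held under 12 of 22 settings, and the value was −0.27 when counts were scaled by library size alone. On the way to the cysteine conjugate, the genes that passed with vehicle were Ggt6, Lap3 and Anpep, which were lower, and Cndp2 and Dpep2, which were higher. The dipeptidase Dpep2 lies below the level set for naming a gene and is named after its value was seen, at 2.93 ± 0.808 (SE, edgeR FDR 0.0178) on the log2 scale and at most 0.931 CPM. The genes beside the acetylation step that passed, Kyat3, Mettl7b and Mettl7a1, were lower.

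Genes that supply acetyl-CoA, receive acetylation in the endoplasmic reticulum or belong to other acyltransferases made a list of 17, of which 16 passed the filter. With vehicle 8 of 16 passed an edgeR FDR of 0.05 (1 higher and 7 lower, where 29.8% of all genes passed in either direction), and with hAAMs 5 of 16 (2 higher and 3 lower, where 20.7% of all genes did). The median log2 fold changes were −0.29 and −0.23, against 0.01 and 0.02 over all genes. Between the treatments edgeR and DESeq2 called none, and 0 had an unadjusted p under 0.05, where 1133 of all 22581 genes did. When counts were scaled by library size alone, 7 passed with vehicle (4 higher and 3 lower) and 4 with hAAMs (3 higher and 1 lower). In that fit 8637 of all 22581 genes were higher and 1110 lower with vehicle, and 6559 and 781 with hAAMs. The acetyl-CoA transporter of the endoplasmic reticulum, Slc33a1, had 44.2 ± 2.89 CPM (SD, n = 3) in control and 37.8 ± 2.5 CPM (SD, n = 5) with vehicle. It fell by 0.23 on the log2 scale (SE 0.0780, edgeR FDR 0.0450), which turned to 0.12 when counts were scaled by library size alone, and was called under 11 of 22 settings. Slc25a1, the citrate carrier that feeds cytosolic acetyl-CoA, fell to −0.43 ± 0.139 (SE, edgeR FDR 0.0347) and −0.54 ± 0.146 (SE, edgeR FDR 0.0240), or −0.09 and −0.25 when counts were scaled by library size alone. Acss2, an acetyl-CoA synthetase, fell to −1.20 ± 0.356 (SE, edgeR FDR 0.0247) with vehicle and had −0.78 ± 0.377 (SE, edgeR FDR 0.161) with hAAMs. Acss1, the acetyl-CoA synthetase of mitochondria, moved the other way, and rose by 1.68 ± 0.348 (SE, edgeR FDR 0.00447) and 1.89 ± 0.359 (SE, edgeR FDR 0.00497), under all 21 settings that tested it. Its level was low, with 0.153 to 0.551 CPM in control livers, 0.932 to 1.72 CPM with vehicle and 1.06 to 1.65 CPM with hAAMs.

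Bace1, a client protein whose acetylation in the endoplasmic reticulum has been described, fell to −0.35 ± 0.115 (SE, edgeR FDR 0.0382) with vehicle, or −0.01 when counts were scaled by library size alone, and had −0.29 ± 0.121 (SE, edgeR FDR 0.109) with hAAMs. Glyat, the mitochondrial glycine N-acyltransferase, fell from 184.9 ± 12.1 CPM (SD, n = 3) to 92.4 ± 8.09 (SD, n = 5) and 101.3 ± 1.63 (SD, n = 4), with edgeR FDRs of 2.62e-05 and 0.000144. Acss1 and 3 more genes of the list that passed lie below the level set for naming and are named after their values were seen. Of these, Nat14, a predicted N-acetyltransferase, fell to −1.23 ± 0.217 (SE, edgeR FDR 0.00201) and −0.91 ± 0.229 (SE, edgeR FDR 0.0166). Aanat, which acetylates serotonin on the way to melatonin, fell to −1.17 ± 0.372 (SE, edgeR FDR 0.0329) with vehicle and had −1.07 ± 0.396 (SE, edgeR FDR 0.0757) with hAAMs. Nat8l, which makes N-acetylaspartate, rose with hAAMs by 2.06 ± 0.586 (SE, edgeR FDR 0.0284) and had 1.44 ± 0.579 (SE, edgeR FDR 0.0797) with vehicle, from at most 0.236 CPM in control livers.

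Position was a property that the choice of the family did not use. Of 41 annotated genes within 500 kb of the cluster that are no members, 27 were in the count table and 24 passed the filter. With vehicle 7 of the 24 passed an edgeR FDR of 0.05, of which 1 was higher and 6 were lower, against 29.8% of all genes in either direction and 14.8% lower. With hAAMs 5 of the 24 passed, of which 1 was higher and 4 were lower, against 20.7% and 9.96% of all genes. The median log2 fold changes were −0.16 and −0.04. Between the treatments edgeR and DESeq2 called none, and 3 of the 24 had an unadjusted p under 0.05, where 1133 of all 22581 genes did. When counts were scaled by library size alone, 7 passed with vehicle (6 higher and 1 lower) and 4 with hAAMs (all higher). In that fit 8637 of all 22581 genes were higher and 1110 lower with vehicle, and 6559 and 781 with hAAMs.

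Within the cluster itself, the pseudogenes Alms1-ps1 and Alms1-ps2, whose gene bodies lie between Nat8f7 and Nat8f6, are named for their place after their values were seen. On the log2 scale they were at −0.39 ± 0.174 (SE, edgeR FDR 0.107) and, for the latter, −0.24 ± 0.176 (SE, edgeR FDR 0.329) with vehicle. With hAAMs they were at 0.11 ± 0.181 (SE, edgeR FDR 0.700) and −0.06 ± 0.185 (SE, edgeR FDR 0.842). Ptges3-ps, between Nat8 and Nat8f2, fell to −0.59 ± 0.103 (SE, edgeR FDR 0.00181) with vehicle and −0.50 ± 0.109 (SE, edgeR FDR 0.00925) with hAAMs. It is a processed copy of a gene elsewhere, from which it can receive reads. Next to Nat8f1, Tprkb fell to −0.71 ± 0.174 (SE, edgeR FDR 0.010) and −0.57 ± 0.184 (SE, edgeR FDR 0.0446), and Nat8b-ps fell to −1.35 ± 0.281 (SE, edgeR FDR 0.00463) and −0.95 ± 0.297 (SE, edgeR FDR 0.0411), both genes with sequence in common with Nat8f1. With hAAMs these calls held under 9 of 22 settings for Tprkb (highest FDR 0.141) and 11 of 22 for Nat8b-ps (highest FDR 0.145). Further out, Dusp11 fell to −0.34 ± 0.0734 (SE, edgeR FDR 0.00546) with vehicle, or 0.00 when counts were scaled by library size alone, and to −0.26 ± 0.0772 (SE, edgeR FDR 0.0333) with hAAMs, or 0.04. Fam136a fell to −0.42 ± 0.0789 (SE, edgeR FDR 0.00278) with vehicle, or −0.07 when counts were scaled by library size alone, and had −0.24 ± 0.0831 (SE, edgeR FDR 0.0563) with hAAMs. Gm19265, an antisense RNA below the level set for naming and named after its value was seen, fell to −0.87 ± 0.297 (SE, edgeR FDR 0.0438) with vehicle, under 11 of 22 settings. Rab11fip5 rose by 2.14 ± 0.274 (SE, edgeR FDR 0.000358) and 1.71 ± 0.278 (SE, edgeR FDR 0.00243).

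**Figure D5:**
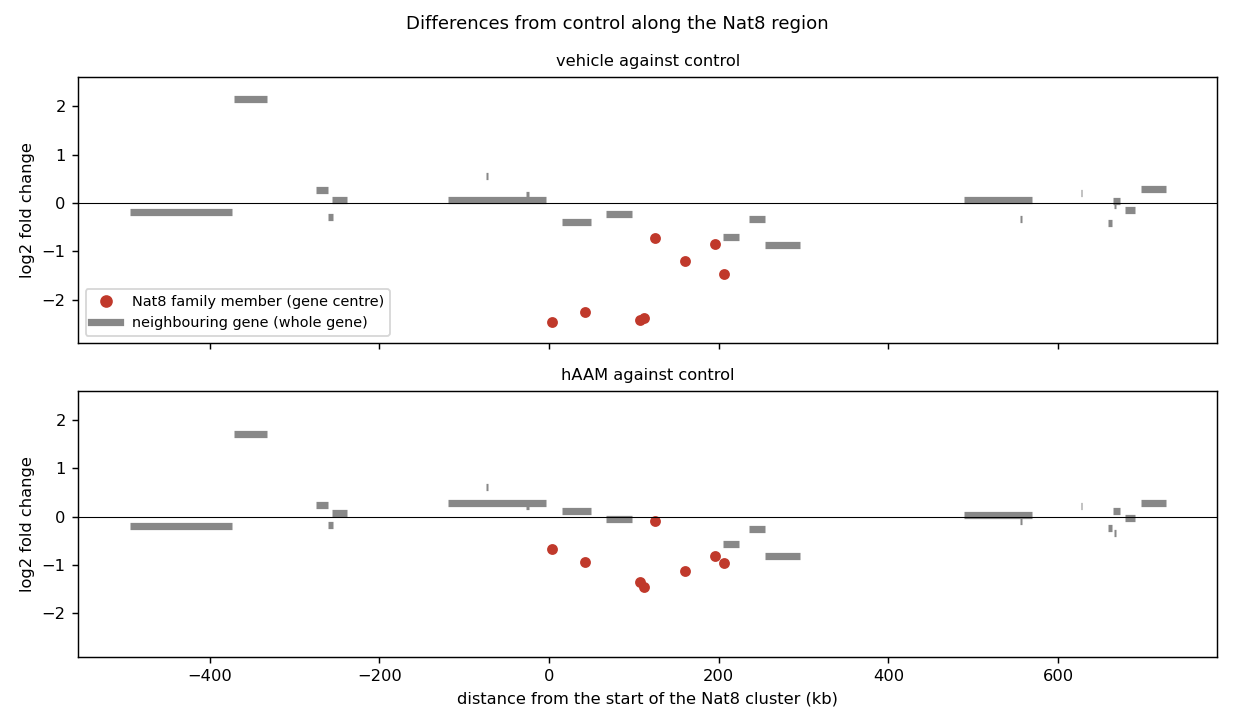
Log2 fold change against control of the Nat8 family members (red points at the centre of each gene) and of the 24 neighbouring genes that passed the filter (grey bars over the extent of each gene), by distance from the start of the cluster in kb, for vehicle above and hAAM below. With vehicle the members lie between −0.73 and −2.46, and the lowest neighbour is at −1.35, the pseudogene Nat8b-ps.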

How the data were processed

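Bulk RNA sequencing libraries of 12 mouse livers were analysed. Per the submitters' processing notes and the study's methods, the authors trimmed reads with cutadapt 4.6, checked them with FastQC and MultiQC 1.25, aligned them with STAR 2.7.1a to GRCm38 and counted them per gene, and they used DESeq2 1.38.3. The deposited values are raw gene counts for 24187 genes, each with at least 15 counts in total. The kit keeps strand, and the strand setting of the counting is not given in the sources used here, so overlapping genes may share counts. Total counts were 47391650 to 74056505 per liver, and low counts carry a wide counting error.

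Counts were filtered (filterByExpr, 22581 genes left) and scaled with TMM factors of 0.832 to 1.14. The 3 groups were fitted together with the quasi-likelihood test of edgeR 4.0.16 (R 4.3.3), and p-values were adjusted by Benjamini-Hochberg over all genes tested (FDR, threshold 0.05). The script was first tested on simulated data. Standard errors are the absolute log2 fold change divided by the square root of F. CPM values are TMM-scaled, and correlations used log2 CPM with a prior count of 2. Gene names, exons and coding sequences came from GENCODE, and promoters from RefSeq (GRCm38.p6). Protein sequences were not used here.

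The members and all lists were chosen with earlier results of these data known. Genes of the lists were named where the FDR was under 0.05 in a comparison with control and the mean log2 CPM was at least 1, and others are said to be named after their values were seen. The genes most like a member were taken by rank of correlation, leaving out genes whose mean log2 CPM was under 2. Nat8f6, with a mean under 1 CPM, was not ranked. Alternatives were DESeq2 1.42.0, library sizes alone, RLE factors, no filter, at least 10 counts in every liver, fits of only the 2 groups compared, a replicate block, each library left out, and both near-identical libraries left out.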

Additional observations from a re-analysis of the deposited data

Results flagged for a closer look

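In 18 sets of values (each member and 1 sum in the vehicle and the hAAM group), the distance of the highest or lowest liver to its nearest neighbour was compared with the whole range of the group, which chance alone passes in about 1 of 20 groups. A liver stood apart in 6 of them. In hAAM replicate 2, Nat8f2 was at 485.5 CPM, where the next liver was at 629.3, and Nat8f4 was at 21.65 CPM, where the next was at 26.14. The summed level of the 8 members was lowest in the same liver, at 554.7 CPM against 715.6 in the next, and this sum follows Nat8f2. In vehicle replicate 3, which is 1 of the near-identical libraries, Nat8f3 was at 0.968 CPM against 0.355 in the next liver, and Nat8f7 at 1.084 CPM against 0.3106. In hAAM replicate 1, Nat8f7 was at 2.649 CPM against 1.093 in the next liver.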

How the results depend on the processing

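The levels of all members lay below control with vehicle under all 22 settings. With hAAMs 7 members did, and Nat8 did in 20, with a range of −0.31 to 0.20. Between the treatments 7 members lay above 0 under all 22 settings, and Nat8f4 in 21 (−0.01 to 0.11). Genes called with vehicle went from 6719 to 4253 with the replicate block, and those with hAAMs from 4666 to 2959 with the block, 2729 with only the 2 groups fitted and 7340 with library sizes alone. Library sizes alone turned the split of calls from 3380 higher and 3339 lower to 8637 and 1110 with vehicle, and from 2418 and 2248 to 6559 and 781 with hAAMs. Between the treatments DESeq2 called 1 gene, and 88 genes and 4 members without the near-identical libraries. With library sizes alone 7 members were called with vehicle and 3 with hAAMs, where 4.92% and 3.46% of all genes were lower. DESeq2 called 7 mercapturate genes and 8 neighbours with hAAMs over 12 livers, and 7 and 10 without the near-identical libraries, where it called 8 acetylation genes. These DESeq2 counts cannot be set against the edgeR counts of all genes. With only the 2 groups fitted, 3 acetylation genes and 3 neighbours were called with hAAMs, and 3 acetylation genes with at least 10 counts in every liver. The block left 8 members called with vehicle and 4 with hAAMs, where 4253 and 2959 of all 22581 genes were called in either direction. It left 0 members called between the treatments, and 5 acetylation genes with vehicle. Same-numbered livers correlated at −0.458 to 0.385, so the numbers did not pair the livers. Leaving out 1 library at a time gave 4633 to 7197 genes with vehicle, 2419 to 5456 with hAAMs (lowest without control replicate 3 for both) and 0 to 1 between the treatments (1 without vehicle replicate 3). Members numbered 7 to 8, 3 to 5 and 0 in the same order. Mercapturate genes numbered 4 to 9 with vehicle and 3 to 6 with hAAMs, acetylation genes 4 to 8 and 2 to 5, and neighbours 6 to 8 and 2 to 6. Of the members' fold changes and other single values, 502 moved by less than 1 SD and 11 by more, and none of these 11 changed sign. The cause of these shifts was not tested.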
